A study of Mus musculus with 7 samples.

Results

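Zinc is stored with insulin in the secretory granules of β-cells, and the levels of 10 genes that move or bind it are described here in sorted β-cells of diabetic mice. The genes were taken by symbol from a table of 35013 gene symbols. They are the zinc exporters Slc30a8, Slc30a1, Slc30a5 and Slc30a7, the zinc importers Slc39a5, Slc39a8, Slc39a13 and Slc39a14, and the metallothioneins Mt1 and Mt2. All 10 were found in the table, and all 10 matched a protein-coding gene of the GENCODE annotation of GRCm38.

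Libraries came from 2 Aldh1a3 KO_db/db mice, 2 db/db mice and 3 db/+ mice, with 1 library per mouse. Per the methods of the study, every mouse carried RIP-Cre Herr, a Cre driven by an insulin promoter, and the reporter tdT fl/+. The Aldh1a3 alleles were fl/fl in the KO_db/db mice and fl/+ in both control groups, so that the controls too had 1 floxed allele, and deletion is complete at most in the cells that express the Cre. The leptin receptor was Lepr db/db in the KO_db/db and db/db mice, which makes them obese and diabetic, and Lepr db/+ in the lean db/+ mice. The mice were adults of either sex, fasted overnight before islets were isolated, and neither the sex of each mouse nor the gate of the sort is given in the sources used here. The comparisons ask how these genes differ between diabetic and lean mice (db/db against db/+), with and without Aldh1a3 in diabetic mice (KO_db/db against db/db), and between the deleted and the lean group (KO_db/db against db/+).

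Proteins of the Slc30 family (ZnT) carry zinc out of the cytosol, into organelles and granules or out of the cell, and proteins of the Slc39 family (ZIP) carry it into the cytosol. Slc30a8 encodes ZnT8, the transporter that loads zinc into insulin granules, where insulin packs with zinc into hexamers. Metallothioneins are small cysteine-rich proteins that bind zinc and copper, and their genes are induced by the metal-sensing factor Mtf1 through metal response elements and also by glucocorticoids.

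The deposited estimated counts summed to between 27496645 and 35852785 per library. Levels are given as CPM, counts scaled to a total of 1000000 after TMM scaling of all 7 libraries with edgeR, so that 3 counts equal between 0.0717 and 0.123 CPM. The targeted gene Aldh1a3 stood at 4.97 and 7.89 CPM in KO_db/db, 98.5 and 194 CPM in db/db, and between 0.0730 and 0.589 CPM in db/+. Ins1 and Ins2 took between 21.8% and 36.1% of the counts, and all 12 β-cell markers were detected in each group. A pair of features of the libraries touches these results. A list of 33 markers of pancreatic acinar cells, which make digestive enzymes, took 12.8% and 1.38% of all counts for the KO_db/db mice and between 0.00701% and 0.0496% in each of the others. The db/+ library of mouse 3 held 2911 counts of 4 Y-linked genes, against between 20 and 79 in each other library. In RNA of whole samples, fewer cells of a type and less RNA per cell cannot be told apart. Each library is 1 mouse, so the p-values measure the spread between these mice.

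The clearest pattern was that of Slc30a8. It was lower in both db/db libraries than in any db/+ library and stood between those groups in the KO_db/db libraries. Of the other exporters, Slc30a5 was also lower in db/db than in db/+. Slc39a5 and Slc39a8 were near 0 in db/db and db/+ and were detected in the KO_db/db libraries, most of all in the library that held most acinar RNA. Mt1 and Mt2 moved together and had no call in any comparison as designed, though some alternatives called them.

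**Figure D1:**
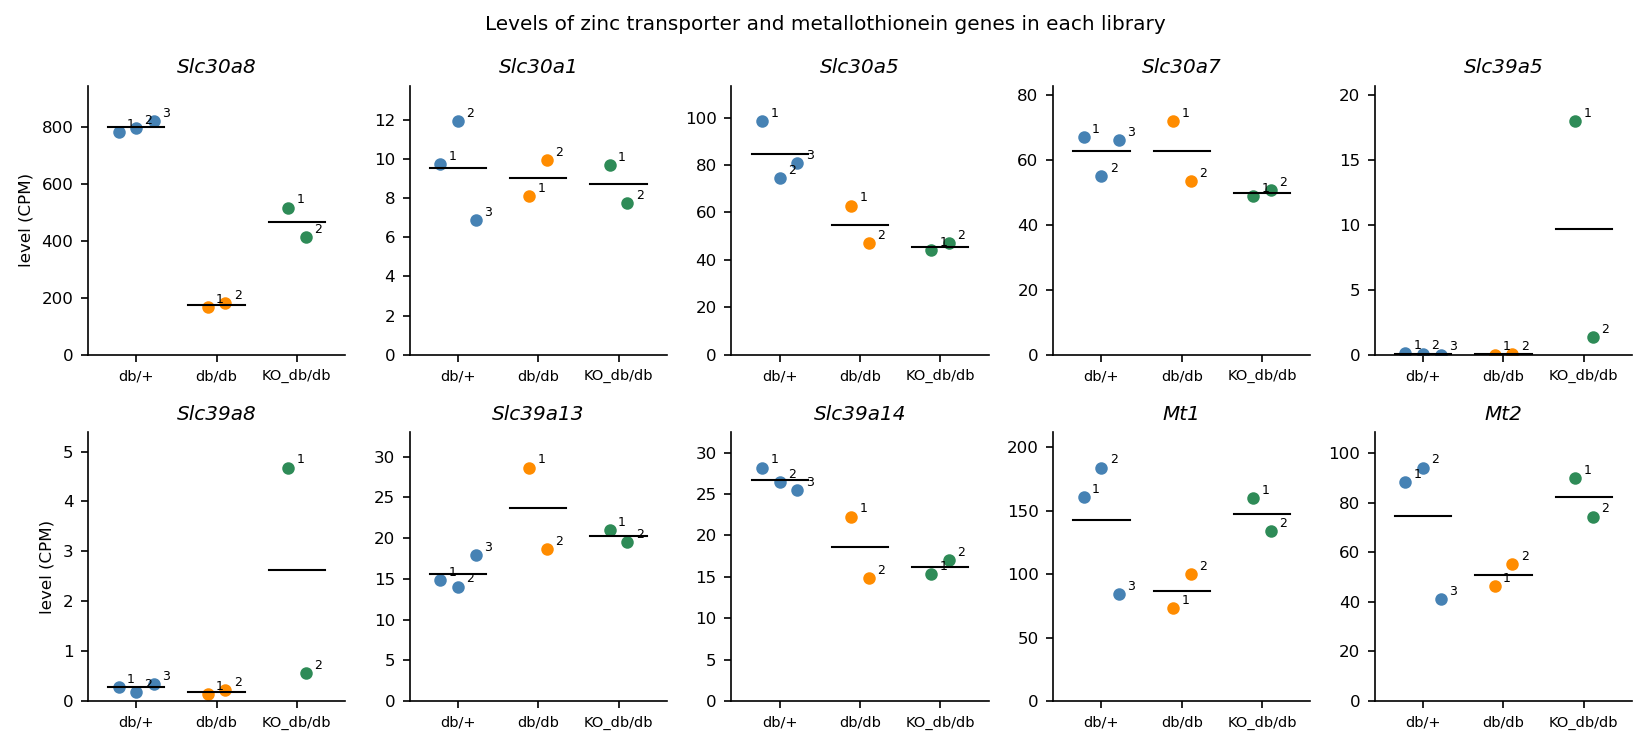
Level of each of the 10 genes (CPM, linear axis from 0) in the 3 db/+, 2 db/db and 2 KO_db/db libraries, where each point is 1 library marked with its mouse number and each line is the mean of the group. Slc30a8 parts the groups with no overlap, Slc39a5 and Slc39a8 are high in the first KO_db/db library, and the db/+ library of mouse 3 is the lowest of its group for Mt1 and Mt2.

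Slc30a8 (ENSMUSG00000022315.3) lies on chromosome 15 of GRCm38 from 52295553 to 52335798 on the plus strand. It stood at 782, 797 and 820 CPM in db/+, 166 and 182 CPM in db/db, and 516 and 412 CPM in KO_db/db. The ranges of the 3 groups did not overlap, with db/+ highest (799.8 ± 19.1 CPM, SD, n = 3) and db/db lowest. In db/db against db/+ the log2 change was -2.21 (standard error 0.13, adjusted p = 0.000325 by the quasi-likelihood test of edgeR with Benjamini-Hochberg adjustment), to 0.216 of the db/+ level. Under the 11 alternatives tried this log2 change ran from -2.28 to -2.15 and was called in each.

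Between KO_db/db and db/db the log2 difference of Slc30a8 was 1.41 (standard error 0.19), a ratio of 2.66, and it did not pass the threshold (adjusted p = 0.0739 by edgeR). A single fit of all 7 libraries, which estimates 1 spread over the 3 groups, gave the same difference with an adjusted p of 0.0101 by edgeR, and over the 10 alternatives the adjusted p ran from 8.46e-12 to 0.171, with 4 calls. With 2 mice against 2, no exact permutation test of a single gene can give p below 0.333. Among the 4 calls is the fit without the second KO_db/db library (1.57, adjusted p = 0.0429 by edgeR). Beside db/+, Slc30a8 was lower in the KO_db/db libraries (log2 change -0.78, standard error 0.16, adjusted p = 0.0105 by edgeR), at 0.583 of the db/+ level. The call held under 9 of the 11 alternatives. Without the second KO_db/db library, the lower of the pair, this log2 change was -0.64 and lost its call (adjusted p = 0.0531 by edgeR).

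Since ZnT8 and insulin fill the same granule, the counts of Slc30a8 were also set beside those of Ins1 and Ins2. Slc30a8 had 2.11, 2.11 and 1.98 counts per 1000 insulin counts in db/+, 0.848 and 1.02 in db/db, and 1.88 and 2.02 in KO_db/db. On this scale both db/db libraries lay below all others, and the KO_db/db range overlapped that of db/+. These ratios were not tested.

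Levels of different genes were compared per kilobase of exon, the summed length of a gene's exons in the annotation. In each group Slc30a8 ranked first among the 10 genes, followed by Mt2, Mt1, Slc30a5 and Slc30a7. In db/+ it stood at 405.8 ± 9.7 CPM per kilobase (SD, n = 3), above the highest library of Mt2 (160 CPM per kilobase). In db/db it stood at 88.3 ± 5.6 CPM per kilobase (SD, n = 2), and its range of 84.3 to 92.2 lay within that of Mt2 (79.1 to 94.2). With the longest transcript in place of the exon sum Mt2 ranked above Slc30a8 in db/db (99.7 against 88.3 CPM per kilobase). Mt2 and Mt1 overlapped in db/+ and in db/db, and in KO_db/db their ranges met (126.6 to 152.8 for Mt2 and 107.7 to 128.4 CPM per kilobase for Mt1). Slc30a5, Slc30a7, Slc39a13, Slc39a14 and Slc30a1 had means between 1.53 and 11.6 CPM per kilobase. In KO_db/db Slc39a5 stood among them at 4.35 ± 5.30 CPM per kilobase (SD, n = 2), with libraries at 0.600 and 8.10.

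Of the summed level per kilobase of 24 Slc30 and Slc39 genes, Slc30a8 alone made up between 72.4% and 74.7% in the db/+ libraries. Its share was 29.8% and 38.5% in db/db and 64.0% and 59.4% in KO_db/db. Within the Slc30 family alone its share was between 91.8% and 92.8% in db/+, 75.3% and 78.9% in db/db, and 91.1% and 89.7% in KO_db/db. The groups did not overlap on either measure. With the longest transcript in place of the exon sum, the share of Slc30a8 among all 24 was between 67.2% and 69.5% in db/+, 25.7% and 33.4% in db/db, and 58.7% and 54.0% in KO_db/db.

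The genes whose log2 CPM followed Slc30a8 most closely over the 7 libraries, among 7652 genes with a mean of at least 10 CPM, were Oxct1 (Pearson r = 0.999), Ucn3 (0.997), Cpne3 (0.997), Itgav (0.996) and Trpm5 (0.994). Oxct1 encodes the enzyme that begins the use of ketone bodies, Ucn3 is a peptide of mature β-cells, and Trpm5 is a cation channel that β-cells use. These correlations describe 7 libraries of 3 groups that share depth and scaling, and carry no test.

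Over the members as a set, 8 of the 10 could be tested in db/db against db/+, since Slc39a5 and Slc39a8 did not pass the filter on low counts there. Of the 8, 2 were lower (Slc30a8 and Slc30a5) and 0 were higher by edgeR at an adjusted p under 0.05, beside 18.0% of all 13406 genes tested that were lower and 19.9% that were higher. At an unadjusted p under 0.05 the test counted 4 of the 8, Slc39a13 among them with a higher level, beside 48.2% of all genes. DESeq2 called 1 higher and 3 lower, beside 19.8% and 17.8%. The levels of 4 of the 8 did not overlap between the groups, beside 63.3% of all genes, and the median log2 difference of the 8 was -0.55, against 0.01 over all genes tested.

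Slc30a5 (ENSMUSG00000021629.10, chromosome 13, 100802648 to 100833427, minus strand) encodes ZnT5, which supplies zinc to the early secretory pathway. It stood at 98.5, 74.6 and 81.0 CPM in db/+, 62.8 and 46.9 CPM in db/db, and 44.1 and 47.1 CPM in KO_db/db. All libraries of the diabetic mice lay below all db/+ libraries, and the db/db and KO_db/db ranges overlapped. Its log2 change was -0.64 in db/db against db/+ (standard error 0.18, adjusted p = 0.0291 by edgeR), and it was -0.89 between KO_db/db and db/+ (standard error 0.14, adjusted p = 0.00402 by edgeR). The first call was lost without the second db/db library (-0.45, adjusted p = 0.117 by edgeR), the first db/+ library (-0.52, adjusted p = 0.0853) or that of mouse 3 (-0.67, adjusted p = 0.0539 by edgeR), and the latter call held under all 11 alternatives. Between KO_db/db and db/db the log2 difference was -0.27 (standard error 0.18, adjusted p = 0.432 by edgeR).

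Slc30a7 (ENSMUSG00000054414.4, chromosome 3, 115938973 to 116007406, minus strand) encodes ZnT7 of the Golgi. It stood at 67.1, 55.1 and 66.1 CPM in db/+, 72.0 and 53.6 CPM in db/db, and 48.7 and 50.7 CPM in KO_db/db. The db/db libraries spanned the db/+ range, and both KO_db/db libraries lay just below all others. The log2 difference was -0.01 in db/db against db/+ (adjusted p = 0.959 by edgeR), -0.34 in KO_db/db against db/db (adjusted p = 0.336) and -0.33 in KO_db/db against db/+ (adjusted p = 0.0582). Without the second db/+ library the last of these was called (-0.42, adjusted p = 0.0336 by edgeR).

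Slc30a1 (ENSMUSG00000037434.7, chromosome 1, 191906767 to 191913247, plus strand) encodes ZnT1, the exporter of the plasma membrane and, like the metallothioneins, a known target of Mtf1. It stood at 9.74, 12.0 and 6.89 CPM in db/+, 8.10 and 9.97 CPM in db/db, and 9.69 and 7.77 CPM in KO_db/db. The groups overlapped throughout. Its log2 difference lay between -0.12 and -0.06 in the 3 comparisons, and the lowest adjusted p was 0.726 by edgeR.

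**Figure D2:**
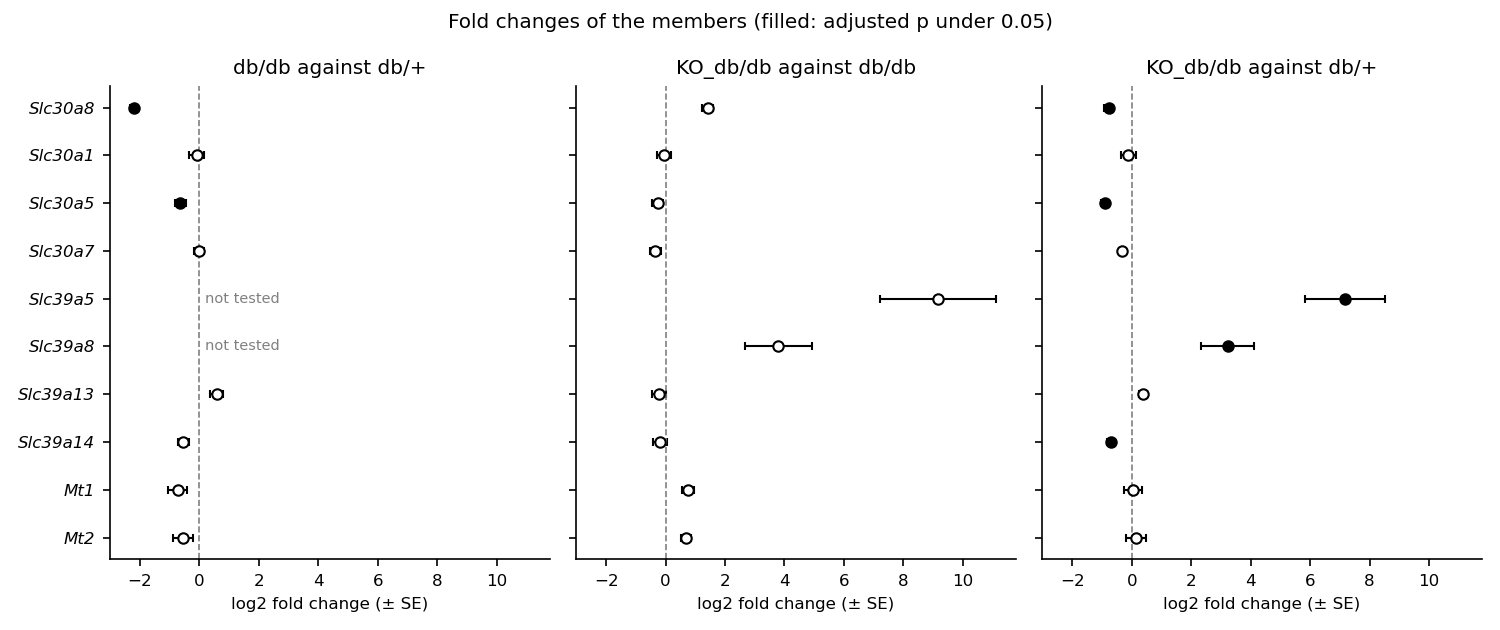
Log2 fold change (horizontal axis, bars ± standard error) of the 10 genes in each comparison, with filled points for an adjusted p under 0.05 by edgeR. Slc30a8 and Slc30a5 are filled in db/db against db/+, no point is filled in KO_db/db against db/db, and 5 are filled in KO_db/db against db/+. The fitted values of Slc39a5 rest on 1 count in db/db and 5 in db/+.

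With KO_db/db set against db/db, all 10 members were tested and edgeR called 0, beside 0.126% of 13486 genes that were higher (17 genes) and 0.193% that were lower (26 genes). Slc39a5 and Slc39a8 passed the filter on low counts here only through the KO_db/db libraries, where they are high, so the other counts are given for the remaining 8. Of these, 3 had an unadjusted p under 0.05 (Slc30a8, Mt1 and Mt2, all with higher values in KO_db/db), beside 20.9% of all genes, and DESeq2 called the same 3, beside 5.48% of genes that it called higher and 4.69% lower. In a single fit of all 7 libraries edgeR called 1 of the 8 (Slc30a8), where 3.66% of 13789 genes were higher and 2.28% lower. The levels of 4 of the 8 did not overlap between these groups, beside 57.5% of all genes, and their median log2 difference was -0.13, against -0.02 over all genes.

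Against db/+, edgeR called 5 of the 10 members in KO_db/db. Slc39a5 and Slc39a8 were higher, but had entered the test only through the KO_db/db libraries and are not counted further. Of the other 8, 3 were lower (Slc30a8, Slc30a5 and Slc39a14, beside 17.9% of 13228 genes tested) and 0 were higher (beside 20.5%), with 5 at an unadjusted p under 0.05 (beside 48.8%). DESeq2 called 3 of the 8 lower (beside 17.8%) and 0 higher (beside 21.0%). The levels of 5 of the 8 did not overlap between the groups, beside 64.1% of all genes. The comparisons share libraries, since each group serves in 2 of the 3.

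Slc39a5 (ENSMUSG00000039878.13, chromosome 10, 128395931 to 128401229, minus strand) encodes ZIP5, an importer known from the acinar pancreas and the intestine. It had 439 and 55 counts in KO_db/db, 0 and 1 in db/db, and 3, 2 and 0 in db/+. Each db/db and db/+ library was thus at or under the floor of 3 counts, and only the KO_db/db libraries brought the gene past the filter on low counts. The KO_db/db level was 18.0 and 1.34 CPM. Scaled for depth, the summed counts of the KO_db/db libraries were 122 times those of db/+ (95% exact interval of counting error 51.8 to 376) and 572 times those of db/db (102 to 22639). Without the first KO_db/db library these ratios were 21.6 (8.70 to 69.0) and 101 (17.4 to 4075). By edgeR the adjusted p was 0.00777 beside db/+ and 0.114 beside db/db, the latter 0.000834 without the second KO_db/db library, and nothing is read from these p-values, since the filter let the gene in through the group where it is high.

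Slc39a8 (ENSMUSG00000053897.15, chromosome 3, 135825279 to 135888572, plus strand) encodes ZIP8, which carries zinc, manganese and iron. It had 114 and 23 counts in KO_db/db, 5 and 9 in db/db, and 7, 5 and 10 in db/+, which is 4.68 and 0.558 CPM, 0.147 and 0.215 CPM, and 0.287, 0.182 and 0.346 CPM. It too passed the filter on low counts only through the KO_db/db libraries, so the fitted values that follow are a description. In the KO_db/db libraries the log2 fold change over db/+ was 3.24 (standard error 0.89, adjusted p = 0.0286 by edgeR), and that over db/db was 3.80 (standard error 1.14, adjusted p = 0.168 by edgeR). Without the first KO_db/db library the former was 1.03. Without any one of the db/+ libraries it lay between 3.02 and 3.46 with adjusted p between 0.0594 and 0.0905 by edgeR. Without the second KO_db/db library it was 4.07, and the difference from db/db was then 4.66. Nothing is read from these p-values, since the filter let the gene in through the group where it is high.

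Between the KO_db/db libraries the acinar markers and both importers moved together. The summed level of the 33 markers was 144247 CPM in the first KO_db/db library and 12051 CPM in the second, 413 and 237 CPM in db/db, and between 80.7 and 254 CPM in db/+. The first KO_db/db library exceeded the second by 12.0 times for the acinar sum, 13.5 times for Slc39a5 and 8.38 times for Slc39a8, and over the single acinar markers the ratio ran from 1.03 to 23.7 with a median of 11.7. For the other 8 members it lay between 0.897 and 1.25. Per 1000000 acinar counts, Slc39a5 had 125 and 111 counts in KO_db/db and Slc39a8 had 32.4 and 46.3. In the db/db and db/+ libraries, on few counts, Slc39a5 had between 0 and 1521 and Slc39a8 between 355 and 3550. Of the acinar markers edgeR called 29 of 30 tested higher in KO_db/db against db/+ (median log2 fold change 9.56, or 9.54 with Serpini2, at 0 in db/+, at its bound of 3 counts per library, and 27 of 30 without the first KO_db/db library) and 0 of 31 in KO_db/db against db/db (median 8.06), where 28 had an unadjusted p under 0.05 and DESeq2 called 30. Over all genes tested, edgeR called 20.5% higher in KO_db/db against db/+ and 0.126% higher in KO_db/db against db/db. In the latter 20.9% had an unadjusted p under 0.05, and DESeq2 called 5.48% higher. Some markers, such as Spink1 with 4 and Klk1 with 13 summed db/+ counts, passed the filter against db/+ only through the KO_db/db libraries. Of the 33 markers, 3 were at 0 in all db/+ libraries, 1 in both db/db libraries and 0 in both KO_db/db libraries. The part of acinar RNA in the levels of Slc39a5 and Slc39a8 was not tested. With the acinar and Reg genes left out of the counts, the log2 values of the 10 members moved by at most 0.0024 and each kept its side of the threshold. This changes only the scaling and the genes fitted, and reads of the members themselves stay in. It thus cannot show how much of their level is acinar RNA.

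**Figure D3:**
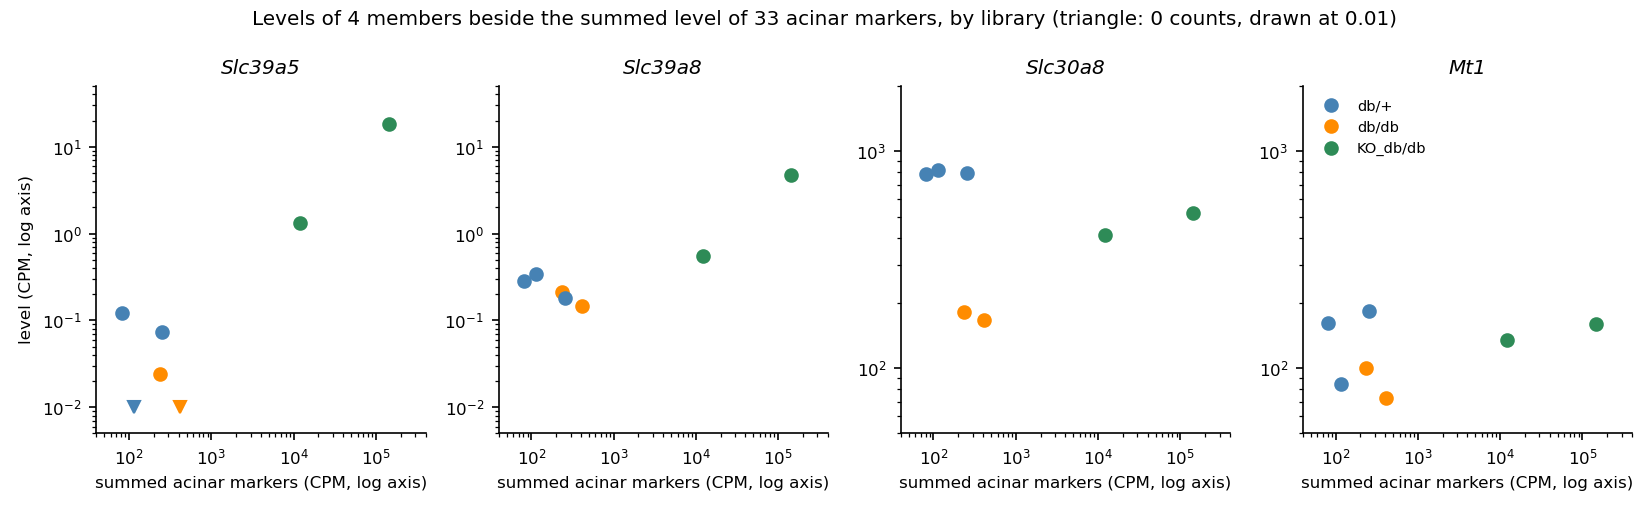
Level of Slc39a5, Slc39a8, Slc30a8 and Mt1 (CPM, log axis) against the summed level of 33 acinar markers (CPM, log axis), where each point is 1 library colored by group and triangles mark libraries with 0 counts, drawn at 0.01 CPM. Slc39a5 and Slc39a8 are highest in the library with the highest acinar sum, while Slc30a8 is highest in the db/+ libraries, which hold at most 254 CPM of acinar markers.

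Among genes with a mean of at least 10 CPM, those closest to Slc39a5 over the 7 libraries were Vps53 (Pearson r = 0.985), Ppp6r1 (0.985), Pxn (0.983), Cog7 (0.977) and Kremen1 (0.973). Slc39a5 and Slc39a8 followed each other with r = 0.941. Only the KO_db/db libraries held more than 10 counts of either gene, so these correlations rest mainly on those libraries and carry no test.

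Slc39a14 (ENSMUSG00000022094.15, chromosome 14, 70303469 to 70351425, minus strand) encodes ZIP14, which imports zinc, iron and manganese. It stood at 28.2, 26.4 and 25.5 CPM in db/+, 22.3 and 14.8 CPM in db/db, and 15.3 and 17.1 CPM in KO_db/db. All libraries of the diabetic mice lay below all db/+ libraries. The log2 change was -0.71 in KO_db/db against db/+ (standard error 0.11, adjusted p = 0.00441 by edgeR, called under all 11 alternatives) and -0.54 in db/db against db/+ (standard error 0.19, adjusted p = 0.0588 by edgeR). Leaving out 1 library, the latter ran from -0.86 to -0.28, the lowest without the first db/db library. In the 6 alternatives that kept every library it ran from -0.59 to -0.53 and was called in 2. The log2 CPM of Slc39a14 ran with that of Slc30a5 over the 7 libraries (r = 0.966). Between KO_db/db and db/db the log2 difference was -0.20 (adjusted p = 0.653 by edgeR).

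Slc39a13 (ENSMUSG00000002105.15, chromosome 2, 91061791 to 91070417, minus strand) encodes ZIP13, which releases zinc from the Golgi and its vesicles. It stood at 14.9, 14.0 and 17.9 CPM in db/+, 28.7 and 18.6 CPM in db/db, and 21.0 and 19.5 CPM in KO_db/db. It was the only member tested with a positive value in db/db against db/+ in this fit, and all libraries of diabetic mice lay above all db/+ libraries. The log2 difference was 0.59 in db/db against db/+ (standard error 0.21, adjusted p = 0.0679 by edgeR), 0.38 in KO_db/db against db/+ (adjusted p = 0.0705) and -0.23 in KO_db/db against db/db (adjusted p = 0.608). Leaving out 1 library, the first of these ran from 0.24 to 0.86, the highest without the second db/db library. In the 6 alternatives that kept every library it ran from 0.59 to 0.67 and was called in 4. Among those, the single fit of all 7 libraries gave an adjusted p of 0.0468 by edgeR. Without the db/+ library of mouse 3 the second difference was 0.49 and called (adjusted p = 0.0323 by edgeR).

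Mt1 (ENSMUSG00000031765.8) and Mt2 (ENSMUSG00000031762.7) lie side by side on the plus strand of chromosome 8 of GRCm38, from 94179082 to 94180327 and from 94172664 to 94173568. kallisto divides reads among similar transcripts, so the split between the pair is less certain than their sum. Mt1 stood at 161, 184 and 84.2 CPM in db/+, 73.1 and 100.4 CPM in db/db, and 160 and 134 CPM in KO_db/db. Mt2 stood at 88.2, 94.2 and 41.0 CPM in db/+, 46.5 and 55.4 CPM in db/db, and 89.8 and 74.4 CPM in KO_db/db. For both genes the KO_db/db libraries lay above the db/db libraries. The db/+ libraries of mice 1 and 2 also lay above db/db, and that of mouse 3, the library with the Y-linked counts, lay within the db/db range for Mt1 and below it for Mt2. Whether sex plays a part was not tested.

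The log2 difference in db/db against db/+ was -0.73 for Mt1 (standard error 0.33, adjusted p = 0.122 by edgeR) and -0.56 for Mt2 (standard error 0.34, adjusted p = 0.233 by edgeR). Without the db/+ library of mouse 3, Mt1 fell by 1.00 (adjusted p = 0.0138 by edgeR) and Mt2 by 0.85 on the log2 scale (adjusted p = 0.00918 by edgeR). Mt1 was also called with no filter on low counts (-0.72, adjusted p = 0.0289 by edgeR). For KO_db/db against db/db the difference was 0.76 for Mt1 (standard error 0.21, adjusted p = 0.150 by edgeR) and 0.69 for Mt2 (standard error 0.17, adjusted p = 0.132 by edgeR). For KO_db/db against db/+ the difference was 0.05 for Mt1 (adjusted p = 0.915 by edgeR) and 0.15 for Mt2 (adjusted p = 0.748), and without the db/+ library of mouse 3 it was -0.22 and -0.14 (adjusted p = 0.248 and 0.392 by edgeR). The ratio of Mt1 to Mt2 counts stayed between 1.57 and 2.05 over the 7 libraries, and both together took between 0.0109% and 0.0243% of the counts.

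Mt2 was the gene most like Mt1 over the 7 libraries (r = 0.973), followed by Mtif2 (0.969), Irf2bp1 (0.965), Ppp2cb (0.945) and Gsr (0.937). Gsr encodes glutathione reductase, which keeps the thiol pool of the cell reduced, and Mtif2 a translation factor of mitochondria.

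The promoters of Mt1, Mt2 and Slc30a1 are shown because these genes are known targets of Mtf1, which reads the metal response element. Each is the sequence of the 250 bases before the transcription start in RefSeq on GRCm38.p6, 5′ to 3′ on the plus strand. Matches to the core of the element, TGCACNC or TGCGCNC on either strand, are in capitals. The stretches are chr8:94178839-94179088 for Mt1, chr8:94172368-94172617 for Mt2 and chr1:191906531-191906780 for Slc30a1.
Mt1: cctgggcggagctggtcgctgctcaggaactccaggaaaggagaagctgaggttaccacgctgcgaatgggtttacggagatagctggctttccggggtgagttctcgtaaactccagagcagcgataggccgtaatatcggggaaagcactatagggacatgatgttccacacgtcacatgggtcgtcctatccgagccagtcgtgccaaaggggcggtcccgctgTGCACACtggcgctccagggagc
Mt2: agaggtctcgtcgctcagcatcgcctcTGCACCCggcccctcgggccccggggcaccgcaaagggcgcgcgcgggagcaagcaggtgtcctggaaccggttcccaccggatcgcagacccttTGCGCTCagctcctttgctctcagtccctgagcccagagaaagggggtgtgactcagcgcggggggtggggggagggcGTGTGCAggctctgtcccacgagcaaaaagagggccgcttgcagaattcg
Slc30a1: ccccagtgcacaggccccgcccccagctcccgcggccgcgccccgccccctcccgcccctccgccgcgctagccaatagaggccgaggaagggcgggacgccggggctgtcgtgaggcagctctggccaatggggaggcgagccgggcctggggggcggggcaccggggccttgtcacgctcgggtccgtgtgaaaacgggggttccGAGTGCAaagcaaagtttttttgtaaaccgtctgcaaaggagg

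Within these 250 bases Mt2 held 3 matches, Mt1 held 1 and Slc30a1 held 1, and none overlapped another. At least 1 match was found in 21.4% of 32851 RefSeq promoters of the same length, and at least 3 in 1.26%. In the 300-base window that adds the first 50 bases of the transcript, Mt2 held 4 matches, Mt1 3 and Slc30a1 2, where 0.517% of all promoters held at least 4, 1.97% at least 3 and 7.11% at least 2. GENCODE lists further starts of Mt1 at 94179211 and 94179241, and the matches of Mt1 after its RefSeq start lie before both. It lists a further start of Slc30a1 at 191907256. Both GENCODE starts of Mt2, 94172664 and 94172860, lie after the RefSeq start used here. Windows set on these GENCODE starts were not searched, so before and after refer to the RefSeq start only. Of the members 8 had a promoter in the table, and Slc30a8 and Slc39a14 had none there. Slc30a5 held 1 match in 250 bases, Slc30a7 and Slc39a13 held 0, and of the 2 starts listed for each of Slc39a5 and Slc39a8 1 held a match. A match says only that these letters are present.

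**Figure D4:**
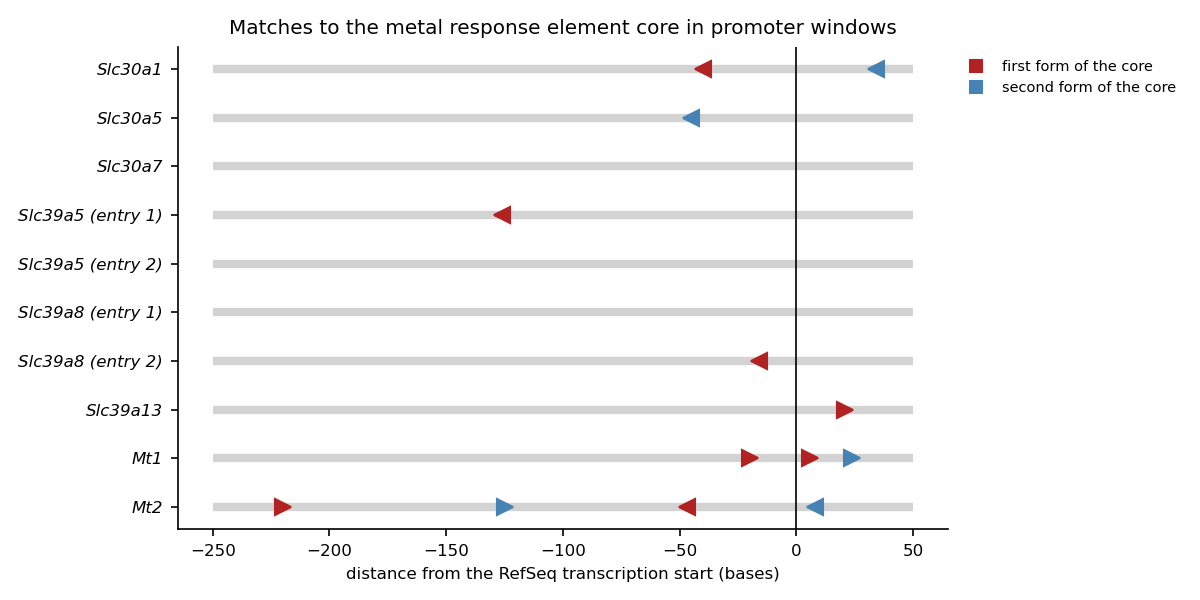
Position of matches to the core of the metal response element in RefSeq promoter windows of 8 members (horizontal axis, bases from the transcription start, with arrows pointing along the strand of the match and color giving the form of the core, TGCACNC first and TGCGCNC second). Mt2 holds 3 matches before its start and 1 after it, and Mt1 holds 1 before and 2 after.

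The other zinc genes were taken as a list of 19, made up of the remaining Slc30 and Slc39 genes, Mt3, Mt4 and Mtf1. Of these, 12 passed the filter on low counts in each comparison and 3 were at 0 in every library. In db/db against db/+ edgeR called 2 of the 12 higher and 4 lower, beside 19.9% and 18.0% of all genes tested. Slc39a11, an importer of the Golgi and nucleus, stood at 8.76, 11.5 and 17.8 CPM in db/+, 55.6 and 39.3 CPM in db/db, and 23.6 and 20.2 CPM in KO_db/db. Its log2 change in db/db against db/+ was 1.89 (standard error 0.30, adjusted p = 0.00405 by edgeR), and its 3 groups did not overlap. Mt3, a metallothionein best known from the brain, stood at 1.06, 0.912 and 1.49 CPM in db/+ and 9.57 and 3.85 CPM in db/db, a log2 change of 2.51 (standard error 0.44, adjusted p = 0.00588 by edgeR). In the KO_db/db libraries Mt3 stood at 1.44 and 3.59 CPM, within the range of db/+ for the first library and above it for the second.

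Slc30a9, known as a zinc exporter of mitochondria, stood at 71.7, 74.5 and 79.2 CPM in db/+, 38.5 and 47.0 CPM in db/db, and 75.1 and 59.7 CPM in KO_db/db. Its log2 change in db/db against db/+ was -0.82 (standard error 0.13, adjusted p = 0.00379 by edgeR). Among importers of the plasma membrane 3 also fell, Slc39a10 by 1.00 (adjusted p = 0.0111), Slc39a3 by 0.49 (adjusted p = 0.0220) and Slc39a1 by 0.40 on the log2 scale (adjusted p = 0.0347 by edgeR). The calls of Slc39a10, Slc30a9, Slc39a11 and Mt3 held under all 11 alternatives. That of Slc39a1 was lost without any one of 4 libraries (adjusted p between 0.0628 and 0.123 by edgeR), both db/db libraries and db/+ mice 1 and 2, and that of Slc39a3 without the first db/db library or db/+ mice 1 or 2 (adjusted p between 0.0680 and 0.0777 by edgeR).

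Between KO_db/db and db/db edgeR called 0 of the 12 tested, with 2 at an unadjusted p under 0.05, beside 20.9% of all genes. DESeq2 called the same pair, beside 5.48% of all genes called higher and 4.69% lower. These were Slc39a11 with a log2 difference of -1.12 (standard error 0.21, adjusted p = 0.0974 by edgeR) and Slc30a9 with 0.65 (standard error 0.18, adjusted p = 0.157 by edgeR). Compared to db/+, 2 of the 12 were lower in KO_db/db and 0 higher, beside 17.9% and 20.5% of all genes tested. Slc30a6, whose product works as a partner of ZnT5, fell by 0.74 on the log2 scale (adjusted p = 0.00839 by edgeR) and stood at 7.51 and 7.53 CPM in KO_db/db against 13.2, 11.6 and 13.1 CPM in db/+. Slc39a10 fell by 0.86 (adjusted p = 0.0198 by edgeR) and stood at 11.8 and 9.32 CPM against 17.4, 16.1 and 24.0 CPM. The call of Slc39a10 was lost without the second KO_db/db library (adjusted p = 0.0930 by edgeR). Slc39a11 had a log2 difference of 0.79 there (adjusted p = 0.0646 by edgeR) and was called without the db/+ library of mouse 3 (1.12, adjusted p = 0.00939), and Mt3 had 1.14 (adjusted p = 0.104) and was called without the first KO_db/db library (1.64, adjusted p = 0.0463 by edgeR). Slc30a6 was called in db/db against db/+ without the first db/db library (-0.62, adjusted p = 0.0492 by edgeR). Slc30a2, an exporter known from acinar zymogen granules, was outside these tests and is named after its values were seen. It had 64 and 2 counts in KO_db/db and 0 in each of the other 5.

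**Figure D5:**
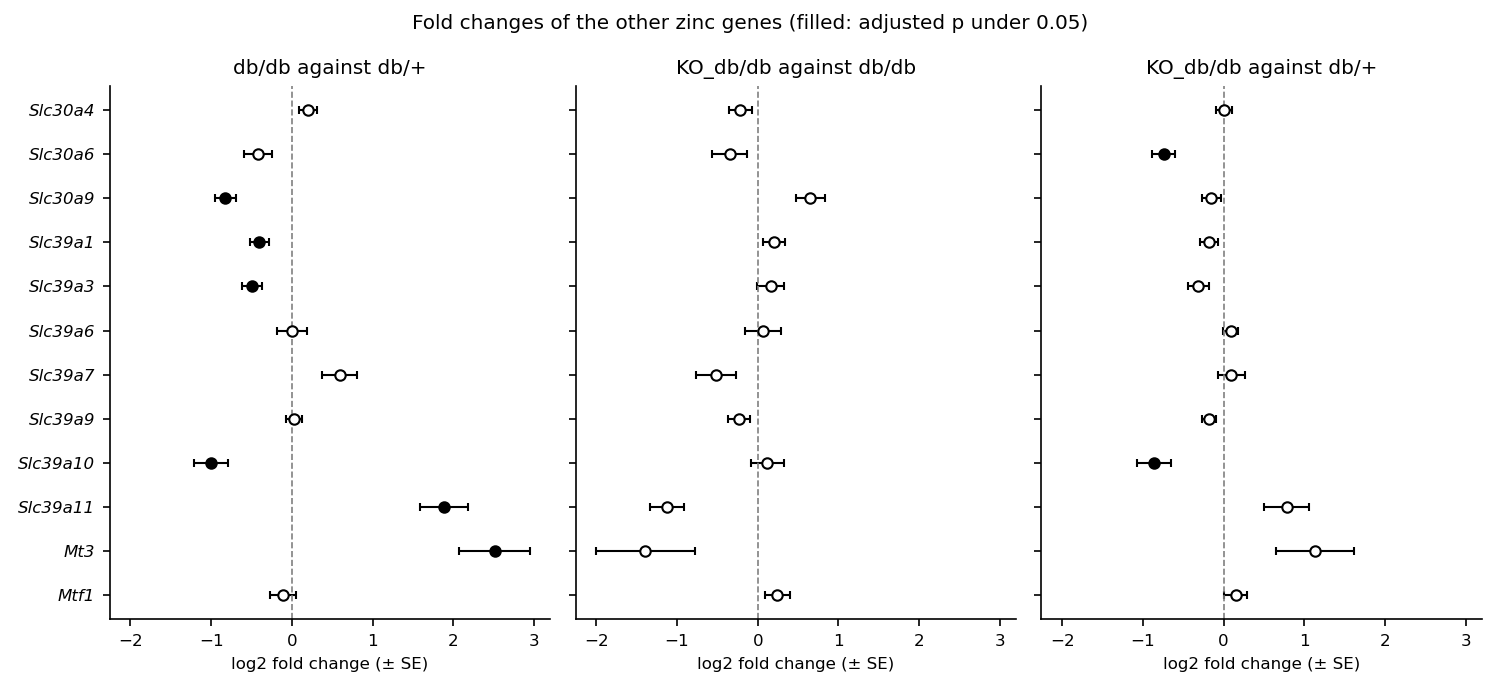
Log2 fold change (horizontal axis, bars ± standard error) of the 12 other zinc genes that passed the filter on low counts, with filled points for an adjusted p under 0.05 by edgeR. Slc39a11 and Mt3 stand highest and Slc39a10 lowest in db/db against db/+, and no point is filled in KO_db/db against db/db.

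Of 8 glucocorticoid-responsive genes, chosen because glucocorticoids also induce Mt1 and Mt2, edgeR called 6 higher in db/db against db/+ (median log2 difference 1.54), among them Sgk1 (2.25, adjusted p = 0.0101) and Errfi1 (2.15, adjusted p = 0.00154 by edgeR). Over all genes tested there, the shares called were 19.9% higher and 18.0% lower. Zbtb16, also called, had 23 and 43 counts in db/db and 0 in each db/+ library, at least 7.76-fold higher against a floor of 3 counts per library, and with it at this bound the median was the same. Compared to db/+, it called 4 of 7 higher in KO_db/db, with Per1 at 2.82, Sgk1 at 1.74 and Errfi1 at 1.67, and 1 of 7 without the first KO_db/db library. Over all genes tested in KO_db/db against db/+, the shares called were 20.5% higher and 17.9% lower. Compared to db/db, edgeR called 0 of 8 in KO_db/db (median -0.39), with 2 at an unadjusted p under 0.05, beside 20.9% of all genes. DESeq2 called 1, beside 5.48% of all genes called higher and 4.69% lower. Klf9 and Tsc22d3 were not called in db/db against db/+ (adjusted p = 0.292 and 0.336 by edgeR).

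Of 26 genes that handle iron, copper and manganese, edgeR called 1 higher and 6 lower of 20 tested in db/db against db/+, and the higher call was lost when any one library was left out. Of all genes tested there, 19.9% were called higher and 18.0% lower. The largest changes in the list were those of the iron exporter Slc40a1 (-1.57, adjusted p = 0.0232), the manganese and calcium pump of the Golgi Atp2c1 (-1.54, adjusted p = 0.000590) and the ferritin light chain Ftl1 (-1.44, adjusted p = 0.00121 by edgeR). For KO_db/db against db/+ it called 3 higher and 5 lower of 22, among them Slc40a1 (-2.72), and 1 higher and 3 lower without the first KO_db/db library. Of all genes tested there, 20.5% were called higher and 17.9% lower. Of the 3 list genes called higher, Hamp2 had 204 and 41 counts in KO_db/db and 0 in each db/+ library (at least 33.4-fold higher against a floor of 3 counts per library), and the ferroxidase Cp had 101 and 32 counts against 4, 1 and 2. For KO_db/db against db/db edgeR called 0 of 22, with 5 at an unadjusted p under 0.05, beside 20.9% of all genes. DESeq2 called 5, beside 5.48% of all genes called higher and 4.69% lower.

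Other cell types were read from marker lists. A count of calls in a list is not read as a change in that cell type. As a scale, edgeR called 19.9% of all genes higher and 18.0% lower in db/db mice beside lean mice. For the KO_db/db mice beside lean mice these shares were 20.5% and 17.9%. With the diabetic groups compared, edgeR called 0.126% higher and 0.193% lower, and 20.9% had an unadjusted p under 0.05. DESeq2 called 5.48% higher and 4.69% lower there. Of 12 β-cell markers, 11 were lower in db/db against db/+, led by Slc2a2 (-3.55), Ucn3 (-2.93) and Mafa (-2.38). Beside db/+, 7 were lower in KO_db/db, led by Slc2a2 (-1.91), G6pc2 (-1.39) and Ucn3 (-1.11), a count of 4 without the second KO_db/db library or the first db/+ library, and beside db/db 1 was higher, Ucn3 (1.79, adjusted p = 0.0459 by edgeR). In db/db against db/+, 2 of 6 α-cell, 2 of 27 acinar (9 of 26 without the db/+ library of mouse 2), 3 of 4 ductal and 2 of 5 endothelial markers tested were higher, while 2 of 4 δ-cell markers and the 1 lymphocyte marker tested were lower. Of the 6 α-cell markers 5 had positive values, and Gcg had -0.90 (adjusted p = 0.186 by edgeR). Without the db/+ library of mouse 3, and with the mouse number as a block, 1 α-cell marker was called lower. Leaving out 1 library gave 0 to 2 endothelial calls (0 without the second db/db or db/+ library), 0 to 3 δ-cell calls (0 without the second db/db library, 1 without the first), 1 acinar call without either db/db library or that of db/+ mouse 3, and 4 of 5 α-cell calls without the db/+ library of mouse 2. In KO_db/db against db/+, 3 of 6 α-cell, 4 of 6 ductal, 2 of 5 endothelial and all 6 Reg genes were higher and 1 endothelial marker was lower. Leaving out 1 library gave 0 to 3 α-cell calls (0 without the first KO_db/db library, 1 without the first db/+ library) and 0 to 3 endothelial calls higher (0 without the second KO_db/db library, 1 without the first or without db/+ mouse 2). Markers of PP-cells, stellate cells and macrophages had no call in either. In KO_db/db against db/db edgeR called 0 in each list other than that of the β-cell, where at an unadjusted p under 0.05 28 of 31 acinar markers, 4 of 4 δ-cell markers, 6 of 6 Reg genes, 2 of 6 ductal markers and the 1 lymphocyte marker tested were higher, and 3 of 7 α-cell, 2 of 6 endothelial and 1 of 3 macrophage markers lower. DESeq2 called 30 acinar, 3 δ-cell, 5 Reg, 1 ductal and 1 lymphocyte gene higher and 3 α-cell and 1 macrophage marker lower. Summed δ-cell markers stood between 381 and 2332 CPM in db/+, at 87.4 and 169 CPM in db/db and at 520 and 653 CPM in KO_db/db, so that, as for Slc30a8, db/db was lowest. The part of any of these in the members' levels was not tested.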

How the data were processed

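RNA of sorted β-cells from 7 mice was sequenced as paired ends from poly-A libraries. The authors deposited estimated counts per gene that kallisto made on GRCm38, as whole numbers with no normalization. The submitters' processing notes name bcl2fastq 2.19 and kallisto 0.44.0, and the annotation release is not given in the sources used here. Groups came from the sample labels. Of 35013 symbols, 34222 matched GENCODE, and 0 columns were left unused. Replicates differed beyond sampling noise.

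Every comparison used a fit of only the 2 groups concerned, in R 4.3.3 with edgeR 4.0.16 (filterByExpr with a minimum count of 10, TMM, quasi-likelihood test, Benjamini-Hochberg over all genes tested, threshold 0.05). DESeq2 1.42.0, the study's tool, was an alternative, as were RLE scaling, no filter, 1 fit of all 7 libraries, mouse number as a block, the acinar and Reg genes left out, and each library left out. Correlations used CPM on the log2 scale after adding a prior count of 2. The fits were tested on simulated data.

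The members and lists were chosen with earlier results of these data known, and the study itself names Slc30a8. All members are named, every other zinc gene called in any comparison, and at most 3 genes per further list and comparison. The lists cover metal handling, glucocorticoid response, the Reg family and acinar, β-, α-, δ- and PP-cell, ductal, endothelial, stellate, macrophage and lymphocyte markers. Exact intervals cover counting error only. Protein sequences were not used here.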

Additional observations from a re-analysis of the deposited data

How the results depend on the processing

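With 2 or 3 mice per group, the counts of calls moved more than the fold changes. In db/db against db/+ (2 zinc genes higher and 6 lower, 0 and 2 of them members), DESeq2 and the fit without a filter each gave 4 higher, with 1 member. The single fit of 7 libraries gave 1 member higher, and the fit without a filter 4 members lower. Leaving out 1 library gave 2 to 4 zinc genes higher, 3 to 7 lower, and 0 to 1 members higher and 1 to 3 lower. In what follows, counts of members higher in KO_db/db include Slc39a5 and Slc39a8 where called. Both passed the filter on low counts only through those libraries. Of the 8 other members, DESeq2 called 3 higher than in db/db and the single fit 1, beside 5.48% and 3.66% of all genes. In KO_db/db against db/db (0 calls), zinc genes and members higher were 6 and 5 with DESeq2, 7 and 5 without a filter, and 3 and 2 in the single fit, with 1 zinc gene lower in the first pair of these. Leaving out 1 library gave 0 to 3 of each and 0 lower. In KO_db/db against db/+ (2 higher, 5 lower), the fit without a filter gave 4 zinc genes higher, and leaving out 1 library gave 1 to 3 higher, 3 to 6 lower, 1 to 2 members higher and 2 to 4 members lower. Over all genes, KO_db/db against db/db held 43 calls (39.5% higher), 1401 with DESeq2, 1570 without a filter, 818 in the single fit (61.6% higher), and 0 without the first db/db library. No alternative moved the median of all genes by more than 0.1. The signs that turned belonged to values with no call in the fits reported. Leaving out 1 library, log2 differences in db/db against db/+ ran from -0.27 to 0.11 for Slc30a1 and from -0.24 to 0.18 for Slc30a7, which was 0.00026 in the single fit. Between KO_db/db and db/db they ran from -0.22 to 0.10 for Slc30a1, -0.50 to 0.11 for Slc39a13, -0.46 to 0.12 for Slc39a14 and -0.053 to 0.29 for Slc39a10, and between KO_db/db and db/+ from -0.31 to 0.074 for Slc30a1, -0.22 to 0.27 for Mt1 and -0.14 to 0.35 for Mt2. The cause of these moves was not tested beyond the libraries left out.

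The deviations of same-numbered mice from their group means correlated at 0.0804 and 0.0916, -0.0641, and -0.111 and -0.132 in the 3 comparisons. With 2 libraries in a group the deviations mirror each other. These values thus cannot tell whether same-numbered mice share more than a number. With the mouse number as a block, zinc genes higher in db/db against db/+ were 4, with 1 member, and 4 members were lower, while KO_db/db against db/+ had 1 member higher. The block added calls of Slc39a13, Mt1 and Mt2 in db/db against db/+ (0.67, -1.01 and -0.85, adjusted p = 0.0418, 0.00347 and 0.00493 by edgeR) and of Slc39a11 in KO_db/db against db/+ (adjusted p = 0.0259 by edgeR), and lost those of Slc30a8 and Slc39a8 there (-0.77 and 2.96, adjusted p = 0.0568 and 0.0628 by edgeR). Slc30a7 in db/db against db/+ was 0.022, and Mt1 and Mt2 in KO_db/db against db/+ were -0.22 and -0.15.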
